A study of Mus musculus with 16 samples.

Results

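The 8 samples of mandibular (lower) first molar germs were compared in 2 runs of their title numbers, samples 1 to 4 (called molars 1-4) against samples 5 to 8 (molars 5-8). All 8 came from wild-type mouse embryos of C57Bl6 background at embryonic day 14.5 (E14.5), carried no treatment, and were each RNA from a pool of 4 tooth germs hybridized to 1 array that measures whole transcripts. They are 8 of 16 samples, beside 4 of lower incisors and 4 of maxillary (upper) first molars of the same background and day. No label separates molars 1-4 from molars 5-8. The split was chosen by values of these same arrays, since whole samples had been seen to resemble one another within each run, and every difference between the runs is therefore given as a description with no test. The labels do not say which embryos, litters, dissection days or array runs a sample came from, so the numbers 1 to 8 carry no such meaning here. Each sample is a pool, and variation between single germs is not seen.

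At this day a molar germ is at the cap stage. A bud of oral epithelium folds around condensed mesenchyme from the neural crest, and a cluster of non-dividing epithelial cells, the primary enamel knot, secretes SHH, FGF, BMP and WNT ligands that act on both tissues. Mesenchyme answers with BMP4, activin and FGF3 of its own, and Hedgehog targets such as *Gli1* and *Ptch1* come on around the source of SHH. Enamel and dentin genes come later. A dissected germ can also bring along tongue or jaw muscle, forming jaw bone, nerve, blood and oral surface epithelium. In bulk samples, fewer cells of a type and less RNA per cell cannot be told apart.

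Molars 5-8 had higher signals than molars 1-4 for some genes of the cap stage germ, among them *Shh*, *Bmp4*, *Msx2*, *Inhba*, *Dkk1*, *Gli1* and *Hhip*, by 1.56-fold to 2.12-fold. Other genes of that stage overlapped between the groups, among them *Fgf4*, *Dkk4*, *Edar*, *Lef1*, *Axin2*, *Barx1*, *Pax9* and *Msx1*. The largest gene difference was at *Mir205*, which was 3.82-fold higher in molars 5-8. Higher in molars 1-4 was *Pax3*. So were the embryonic globins *Hbb-y* and *Hba-x*, 2 of 9 erythroid genes, though the mean of that list was highest in molar 7. The neurofilaments *Nefl* and *Nefm*, 2 of 14 neuronal genes, were also higher in molars 1-4, while *Uchl1* was higher in molars 5-8. Skeletal muscle genes were higher in molars 1-4 by median only, with 1 of 33 separating the groups. Of the 123 probe sets called, 74 lie in 1 block that carries no gene symbols, and in these, as in most of the genes, lower incisors lay nearer to molars 1-4 and maxillary molars nearer to molars 5-8.

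Sequences of some microRNAs that differed are given first, with the seed (bases 2 to 8, which pair with targets) in capitals, as RefSeq holds them for the assembly GRCm38.p6. The 4 called over 2-fold higher in molars 5-8 were miR-205, miR-301a, miR-130a and miR-568. Members of a genomic cluster, an identical pair and miR-200b were higher in molars 5-8 by less. The last, miR-692, had the largest difference of a microRNA in the other direction. Only microRNA genes without overlap between the groups and over 1.2-fold apart were considered, so any other members of the cluster are not shown. The array probes cover the gene of a microRNA and do not separate the mature strand from its precursor.
miR-205-5p: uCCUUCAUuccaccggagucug
miR-301a-3p: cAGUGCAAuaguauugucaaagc
miR-130a-3p: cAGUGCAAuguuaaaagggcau
miR-568: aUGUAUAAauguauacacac
miR-18a-5p: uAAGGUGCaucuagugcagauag
miR-17-5p: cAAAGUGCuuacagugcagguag
miR-19b-3p: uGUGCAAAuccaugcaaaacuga
miR-199a-3p: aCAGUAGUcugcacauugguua
miR-199b-3p: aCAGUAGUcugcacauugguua
miR-200b-3p: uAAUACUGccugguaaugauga
miR-692: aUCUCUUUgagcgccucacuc
miR-301a-3p and miR-130a-3p are shown for their common seed, and come from hairpins on different chromosomes (chr11:87113004-87113089 on the plus strand and chr2:84741115-84741178 on the minus strand). miR-199a-3p and miR-199b-3p have the same sequence, and the hairpins of the genes that differed here lie at chr9:21496495-21496564 and chr2:32318460-32318569. The hairpins of miR-17, miR-18a and miR-19b-1 lie close together on the plus strand of chromosome 14, at chr14:115043671-115043754, chr14:115043851-115043946 and chr14:115044305-115044391. miR-205 (chr1:193507463-193507530, minus strand) and miR-200b (chr4:156055681-156055750, minus strand) are microRNAs known from epithelia.

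A probe set was kept where its log2 signal was above 5 in at least 1 of the 8 samples, which left 28936 of 35556. It was called where every sample of one group lay above every sample of the other and the group means differed by more than 2-fold. By this rule 97 probe sets were higher in molars 5-8 (0.335% of those kept) and 26 were higher in molars 1-4 (0.0899%). With 1 probe set for each gene (the one with the highest mean over the 16 samples, among probe sets of a single symbol), 30 of 17165 genes were higher in molars 5-8 (0.175%) and 5 were higher in molars 1-4 (0.0291%). At the lower limit of 1.2-fold, used for gene lists below, 1374 genes were higher in molars 5-8 (8.00%) and 581 were higher in molars 1-4 (3.38%). These shares are the background for every list count over all 8 samples below. With 1 sample left out the counts over all genes moved too. Higher in molars 5-8 were 1262 (without molar 2) to 1910 genes (without molar 4). Higher in molars 1-4 were 618 (without molar 5) to 797 genes (without molar 3). List counts with a sample left out are given without a share and belong beside these. The median difference of all kept genes was 0.01 on the log2 scale, and it stayed at 0.01 and 0.02 after quantile normalization and cyclic loess. The count of called probe sets higher in molars 1-4 rested on a few samples. It was 212 without molar 4, 63 without molar 7 and 50 without molar 8, and leaving a sample out makes it easier for groups not to overlap. The count of called probe sets higher in molars 5-8 lay between 89 and 121 over the samples left out in turn.

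**Figure D1:**
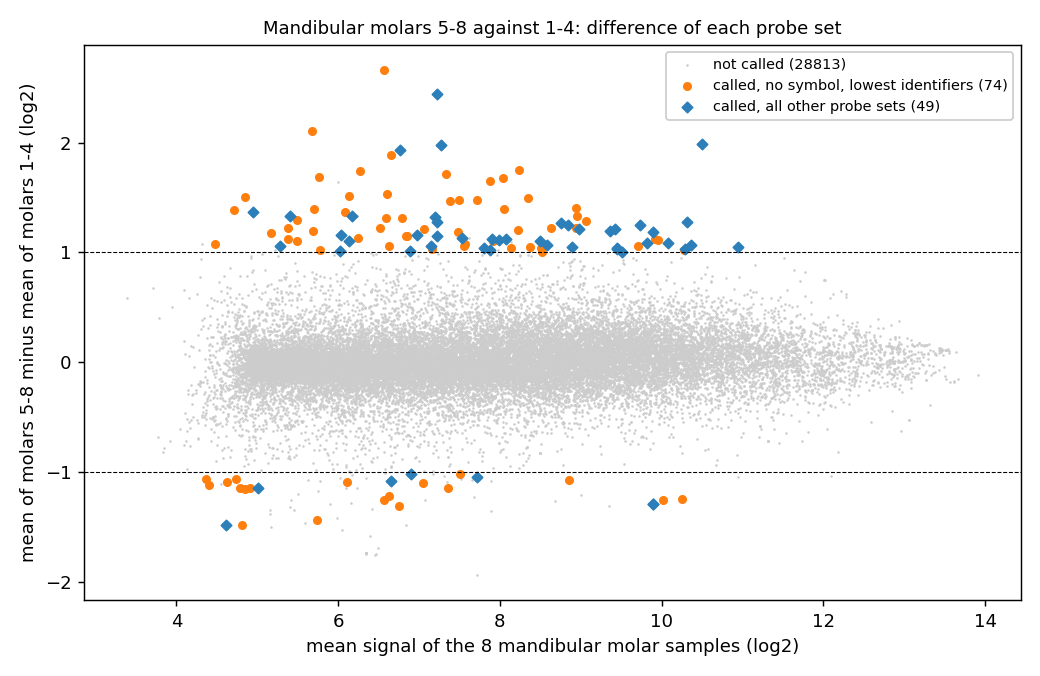
Mean signal of the 8 mandibular molar samples (x axis, log2) against the mean of molars 5-8 minus that of molars 1-4 (y axis, log2), 1 point for each of the 28936 probe sets kept. Dashed lines mark a 2-fold difference; of the 123 called probe sets, 74 carry no symbol and have the lowest identifiers (orange), and 97 of the 123 lie above the upper line.

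The 123 called probe sets were not spread evenly over the annotation. A block of 6617 probe sets with no gene symbol, whose identifiers are below the first one that has a symbol, had 5267 kept, which made up 18.2% of all those kept and 74 (60.2%) of those called, 55 higher in molars 5-8 and 19 higher in molars 1-4. Within the block 1.40% of the 5267 were called, against 0.208% of those with 1 symbol, where 39 were called. The tables used here do not say what the block holds. Its probe sets also varied most between samples of a group, with a median SD of 0.357 in molars 1-4 and 0.209 in molars 5-8, against 0.119 and 0.0815 for probe sets with 1 symbol. The mean signal of the block was 6.51, 6.69, 6.54 and 6.14 in molars 1 to 4 and 6.42, 6.43, 6.54 and 6.43 in molars 5 to 8. Molar 4 was thus the lowest and molar 2 the highest, and the sample means of the groups overlapped.

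Of the remaining called probe sets, 4 carried several symbols and 6 had no symbol and lay elsewhere in the identifiers. The gene results below are from probe sets of a single symbol only.

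*Mir205*, which codes for the epithelial microRNA with the first sequence above, had log2 signals of 5.48, 6.33, 5.97 and 5.40 in molars 1 to 4 and of 7.47, 7.83, 7.73 and 7.89 in molars 5 to 8 (difference 1.94). *Mir301* had 4.12, 4.43, 4.47 and 4.05 against 5.47, 5.69, 5.62 and 5.75 (1.36), with all of molars 1-4 below the signal limit of 5. *Mir130a*, which shares its seed, had 4.54, 5.08, 4.90 and 4.48 against 5.81, 5.87, 5.54 and 5.99 (1.05). In these 3 genes every sample of molars 5-8 lay above every sample of molars 1-4, and molars 1 and 4 were the lowest. Within molars 1-4 *Mir205* did not follow the dental epithelium list below. It was highest in molar 2, where that list had its lowest mean (9.55), and lowest in molar 4 (list mean 10.08). The mean of all microRNA genes was also highest in molar 2 (6.75) and lowest in molar 4 (6.18). *Mir568* had 5.61, 5.16, 5.46 and 5.59 against 6.30, 6.48, 6.61 and 7.06 (1.16). Setting a floor at 5 brought the difference of *Mir301* to 0.63 and that of *Mir130a* to 0.78, since values of molars 1-4 lie under the floor.

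Of 300 microRNA genes on the array 187 were kept, and 16 (8.56%) were higher in molars 5-8 while 5 (2.67%) were higher in molars 1-4 at 1.2-fold. These shares lie close to the 8.00% and 3.38% of all genes, so the counts say nothing particular to microRNAs. The cluster members on chromosome 14 that passed this limit differed by 0.84 (*Mir18*), 0.78 (*Mir19b-1*) and 0.41 (*Mir17*). The genes of the identical pair differed by 0.78 (*Mir199a-1*) and 0.70 (*Mir199b*), and *Mir200b* by 0.66. *Mir31*, *Mir107*, *Mir152*, *Mir25*, *Mirlet7f-1* and *Mir143* were higher in molars 5-8 by 0.32 to 0.42. On the other side *Mir692-1* had 10.17, 10.23, 10.57 and 10.04 in molars 1-4 against 9.28, 9.60, 9.58 and 9.38 in molars 5-8 (-0.79). *Mir99b* (-0.49), *Mir362* (-0.35), *Mir212* (-0.32) and *Mir26b* (-0.30) were also higher in molars 1-4. The median difference over the 187 was within 0.01 of 0. Its mean signal ranged from 6.18 (molar 4) to 6.75 (molar 2) in molars 1-4 and from 6.49 to 6.57 in molars 5-8. The counts depended on those samples, with 34 microRNAs higher in molars 5-8 without molar 2 and 25 without molar 5, and 23 higher in molars 1-4 without molar 4 and 10 without molar 1.

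Among signals of the enamel knot, *Shh*, the Hedgehog ligand of the germ, had 8.77, 7.77, 9.34 and 9.44 in molars 1 to 4 and 9.82, 9.70, 9.99 and 9.77 in molars 5 to 8. Its difference of 0.99 was just under 2-fold. Molar 2 was the lowest, molars 3 and 4 lay nearest to molars 5-8, and the groups did not overlap. *Sostdc1*, a secreted antagonist of BMP and Wnt signals made around the knot, had 11.27, 10.79, 11.54 and 11.83 in molars 1-4, all below molars 5-8 at 12.18 ± 0.14 (SD, n = 4, difference 0.82). *Msx2*, a homeobox gene of the knot that responds to BMPs, had 6.92, 6.61, 7.50 and 7.62 against 8.09, 7.94, 7.89 and 8.13 (0.85). In all 3 genes molar 2 was lowest, then molar 1, then molar 3, and molar 4 came nearest to molars 5-8.

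Of the 16 genes measured from the enamel knot list, 6 were higher in molars 5-8 (37.5%) and none in molars 1-4, and the median difference was 0.24. The 6 include *Sostdc1*, which is made around the knot. Beside it, *Shh* and *Msx2*, they were *Slit1*, a guidance ligand (0.44), *Bmp7* (0.36) and *Fst*, the activin antagonist follistatin (0.30). *Fgf4*, whose transcript is a classic mark of the knot, had 8.04, 7.21, 8.15 and 8.34 against 8.71, 8.02, 7.94 and 7.87. Its groups overlapped, with molar 5 highest and molar 2 lowest. *Dkk4* had 6.72, 6.53, 6.93 and 7.31 against 7.31, 6.97, 7.13 and 7.17, with molar 4 level with molar 5. *Edar*, the ectodysplasin receptor, differed by 0.09 and *Lef1*, a transcription factor of the Wnt pathway, by 0.28, both with overlap. The mean signal of the list was 8.26, 7.91, 8.43 and 8.54 in molars 1-4 and 8.68, 8.52, 8.56 and 8.55 in molars 5-8. Molar 4 therefore lay inside the range of molars 5-8, and molar 2 stood below the other 7.

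Among Hedgehog genes *Gli1*, the transcription factor that reads out Hedgehog activity, had 9.21, 9.21, 9.17 and 9.22 in molars 1-4 and 9.76, 10.02, 9.94 and 9.86 in molars 5-8 (0.69). Its values in molars 1-4 were nearly level, while *Shh* ranged from 7.77 to 9.44 in the same samples. *Hhip*, a membrane protein that binds and limits SHH, had 7.93, 7.62, 7.65 and 8.12 against 8.37, 8.69, 8.54 and 9.13 (0.85). *Ptch1*, the receptor and target, had 10.89, 10.65, 11.03 and 11.22 against 11.37, 11.56, 11.46 and 11.73 (0.58). Neither overlapped between the groups, and molar 4 was again the highest of molars 1-4 in both. Of 12 Hedgehog genes 4 were higher in molars 5-8 (33.3%) and 1, the co-receptor gene *Gas1* (-0.27), was higher in molars 1-4. Without molar 4 the first count was 6.

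BMP and activin genes gave the largest count among the signalling lists. Of 21 BMP genes 9 were higher in molars 5-8 (42.9%) and none in molars 1-4, with a median difference of 0.13. The mesenchymal ligand *Bmp4* had 10.62, 10.65, 10.93 and 11.02 against 11.44, 11.46, 11.38 and 11.52 (0.64). *Inhba*, which encodes the activin A subunit and is made by the dental mesenchyme, had 10.11, 10.42, 10.42 and 10.73 against 11.57, 11.49, 11.34 and 11.49 (1.05). Both had a gap between the groups wider than the whole range of molars 5-8. *Id4* (0.74) and *Id3* (0.37), direct targets of BMP signalling, *Bmp3* (0.41) and the antagonist *Chrdl1* (0.52) were the further members beside *Msx2*, *Bmp7* and *Fst*. The mean of the list was 8.78, 8.81, 8.90 and 9.05 in molars 1-4 and 9.15, 9.19, 9.08 and 9.15 in molars 5-8, with no overlap.

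Among Wnt genes *Dkk1*, a secreted inhibitor of Wnt receptors, had 9.08, 8.76, 9.28 and 9.97 in molars 1-4 and 10.43, 10.55, 10.11 and 10.33 in molars 5-8 (1.08). Molar 4 was the highest of molars 1-4 and just under molar 7. The antagonists *Sfrp1* (0.57) and *Frzb* (0.49) were also higher in molars 5-8, and *Nkd1*, an intracellular inhibitor and target, was higher in molars 1-4 (-0.29). These were 3 and 1 of 26 genes (11.5% and 3.85%), beside 8.00% and 3.38% of all genes. *Axin2*, the common target of the pathway, had 8.91, 8.64, 9.02 and 9.08 against 9.12, 9.02, 8.79 and 9.04, with overlap. Without molar 4, 7 Wnt genes were higher in molars 5-8.

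FGF genes had a median difference of -0.01. The ETS factors *Etv5* (0.49) and *Etv1* (0.48), targets of FGF signalling, were higher in molars 5-8 and the inhibitor *Spred2* was higher in molars 1-4 (-0.33). *Spred2* had another probe set with a difference of 0.40 in the opposite direction. *Fgf3*, a ligand of the mesenchyme, had 6.28, 6.35, 6.93 and 7.20 against 7.68, 7.53, 7.36 and 7.14, and molar 4 lay above molar 8. The count of FGF genes higher in molars 5-8 was 2 of 21 (9.52%, near the 8.00% of all genes). It was 5 without molar 4 and 4 without molar 8.

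**Figure D2:**
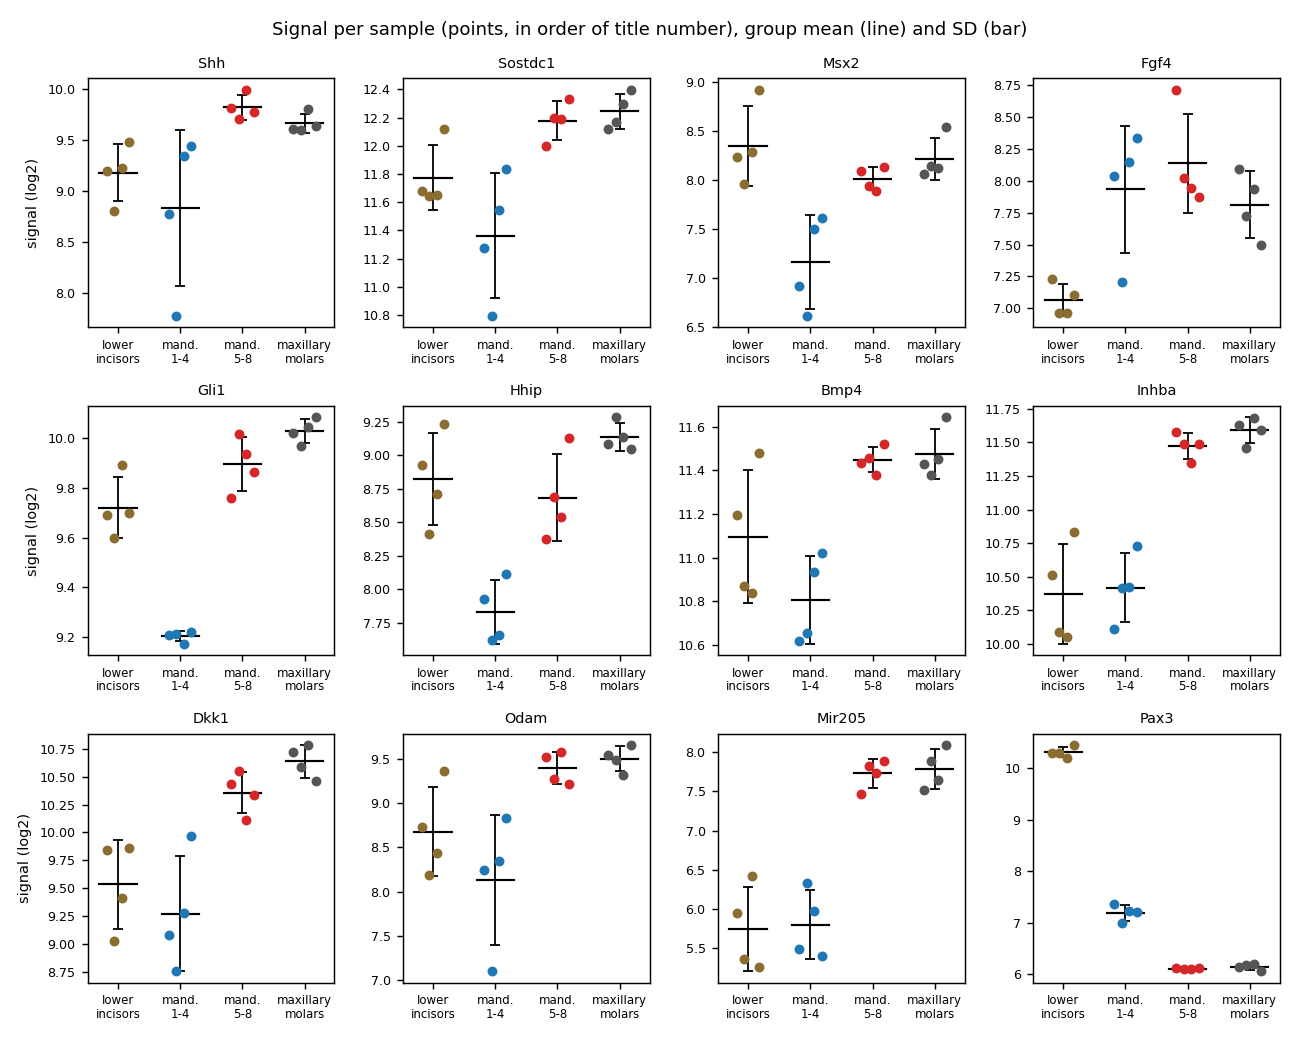
Log2 signal of 12 genes in the 16 samples (1 point a sample, from left to right by title number), with the mean (line) and SD (bar) of each group of 4. In *Shh*, *Sostdc1* and *Msx2* the lowest point is molar 2 at 7.77, 10.79 and 6.61; *Gli1* keeps within 9.17 to 9.22 in molars 1-4, *Fgf4* overlaps between the groups, and *Mir205* and *Pax3* separate them with no overlap.

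Of 20 genes of the dental mesenchyme 4 were higher in molars 5-8, namely *Dkk1*, *Inhba*, *Bmp4* and *Tfap2b* (0.59), which encodes an AP-2 protein active in crest cells. *Twist1*, a bHLH factor of the crest mesenchyme, was higher in molars 1-4 (-0.35). The identity factors of the molar mesenchyme showed little, with *Barx1* at 11.26 ± 0.14 and 11.35 ± 0.08 (SD, n = 4 each), *Pax9* at 10.82 ± 0.14 and 10.85 ± 0.09, and *Msx1* at 10.40 ± 0.21 and 10.51 ± 0.16, all overlapping. The list's mean was 10.04, 10.14, 10.32 and 10.44 in molars 1-4 and 10.56, 10.58, 10.39 and 10.52 in molars 5-8. Without molar 4, 8 genes of this list were higher in molars 5-8, without molar 7 it was 7, and without molars 2 and 4 it was 8.

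In the epithelium *Foxi3*, a forkhead factor of the dental placode and cap, had 9.85, 8.73, 10.30 and 10.46 in molars 1-4 and 10.87, 10.81, 10.90 and 11.03 in molars 5-8 (1.07). *Tbx1* (0.60), the keratin *Krt17* (0.60), *Epcam* (0.38) and *Cdh1* (0.32) were the other members higher in molars 5-8, and molar 2 was the lowest sample in each. *Krt15*, a keratin of basal cells, went the other way with 10.74, 10.25, 10.32 and 10.43 against 9.48, 9.80, 9.66 and 10.21 (-0.65). This made 5 and 1 of 20 genes, and 3 were higher in molars 5-8 without molar 2. The mean of the list was 10.12, 9.55, 9.93 and 10.08 against 10.06, 10.02, 10.10 and 10.22, with molar 2 the lowest and the groups overlapping.

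*Odam*, which encodes a protein secreted by late ameloblasts and by junctional epithelium, was among the 10 largest differences, with 8.24, 7.10, 8.34 and 8.83 in molars 1-4 and 9.52, 9.27, 9.57 and 9.21 in molars 5-8 (1.27). It was the single gene of 11 in the list of enamel and dentin genes that passed the limit (9.09%, near the 8.00% of all genes). *Ambn* (ameloblastin) had 7.57, 7.68, 7.84 and 8.10 against 7.84, 8.34, 7.78 and 8.95, with overlap and molar 8 highest. *Amelx* was at or under the signal limit of 5 in 7 of the 8 samples, at 4.41 to 5.09 in molars 1-4 and at 4.44 to 4.54 in molars 5-8.

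Among 29 cell cycle genes 7 were higher in molars 5-8 (24.1%), the mitotic kinesin *Kif11* (0.39), *Kif23*, *Ccnb2* (0.41), *Cenpe* (0.45), *Cenpf*, *Bub1* and the proliferation mark *Mki67* (0.35). *Cdk1*, the mitotic kinase, was higher in molars 1-4, with 11.44, 11.40, 11.48 and 11.58 against 11.18, 11.07, 11.12 and 11.00 (-0.38). The median of the list was 0.17, and each of the 8 differences was under 0.5.

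Other genes with the largest differences have varied roles. *Kcnip3*, a calcium-binding partner of potassium channels, had 9.56, 9.32, 9.80 and 10.03 against 10.87, 10.93, 11.05 and 10.96 (1.27). *Vps33b*, of vesicle tethering, had 9.05, 9.09, 8.99 and 9.28 against 10.17, 10.31, 10.51 and 10.43 (1.25). *Papss2*, which makes the sulfate donor for matrix glycans, had 8.68, 8.54, 8.94 and 9.12 against 9.90, 10.13, 10.16 and 9.94 (1.21). In these 3 the values of molars 5-8 were close together and well above all of molars 1-4. *Plppr5* (1.32), *Mc5r*, a melanocortin receptor (1.28), and the histone gene *H3c15* (1.34) were the others, together with *Dlx1as* (1.22), an RNA antisense to *Dlx1*. *H3c15* had 5.46, 6.09, 5.24 and 5.22 in molars 1-4 and 6.62 to 7.02 in molars 5-8, and histone genes resemble one another in sequence, which leaves its own level uncertain.

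The remaining called genes higher in molars 5-8 were *Uprt*, *Gcnt4*, *Cdh12*, *Atp6v0d2*, *Gpx3*, *Cdh17*, *Crym*, *Sike1*, *Ehd3*, *Rspo4*, *Napepld*, *Ccdc141*, *Igfbp7*, *Vwde* and *Stox2*, at 1.00 to 1.19. Probe sets of one gene did not always move alike. Of 5 probe sets of *Ccdc141*, 4 were higher in molars 5-8 by 0.52 to 1.04 and 1 differed by -0.01. *Stox2* had 1.00 at one probe set and -0.16 at the other, while the 2 of *Uprt* had 1.19 and 1.25. Just inside the limit of 2-fold were *Stox2* and *Vwde* (1.01), and just outside it *Shh* (0.99) and *Glp1r* (0.98). On the other side *Hsd3b6* and *Cbln4* were just inside, and *Nefm* (-0.95) and *Lrrtm3* (-0.94) just outside.

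Only 5 genes were called higher in molars 1-4. *Pax3*, a paired-box factor of the neural crest and of muscle precursors, had 7.36, 7.00, 7.22 and 7.20 against 6.12, 6.11, 6.10 and 6.12 (-1.08). The values of molars 5-8 were nearly level. *Pax3* was far higher in lower incisors, at 10.31 ± 0.10 (SD, n = 4), and at 6.15 ± 0.06 in maxillary molars. The other 4 genes chosen, after their values were seen, as over 8-fold higher in lower incisors than in maxillary molars did not separate the mandibular molars. *Hand2* had 6.73 ± 0.10 in molars 1-4 and 6.63 ± 0.08 in molars 5-8, and *Hpse2* 6.40 ± 0.15 and 6.41 ± 0.13, while *Sfrp4* (-0.15) and *Alx4* (-0.18) also overlapped. Of 3 genes chosen in the opposite direction *C1qtnf3* (0.73) was higher in molars 5-8, and *Barx1* (0.08) and *Cntn6* (0.07) overlapped.

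*Snora3*, a small nucleolar RNA, had 10.40, 10.89, 10.19 and 10.67 in molars 1-4 against 8.87, 9.43, 9.91 and 8.78 in molars 5-8 (-1.29), and 2 probe sets of the name both gave a difference of -1.29. *Hsd3b6*, a steroid dehydrogenase, had 8.68, 8.27, 7.91 and 8.11 against 7.27, 7.25, 7.55 and 6.73 (-1.04). *Cbln4*, a secreted synaptic protein, had 7.81, 7.05, 7.58 and 7.20 against 6.59, 6.16, 5.94 and 6.88 (-1.02). *Bpifb9b* had 6.48, 5.82, 4.95 and 4.19 against 3.70, 4.13, 3.73 and 3.93 (-1.49), with molar 4 just above molar 6 and all of molars 5-8 below the signal limit. With a floor at 5 its difference was -0.57.

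Genes of tissues next to the germ were read for what dissection may have brought along. Skeletal muscle had a median difference of -0.38 over 33 genes, but 1 of them alone, *Myf5* (-0.40), separated the groups. The mean of the list was 7.49, 8.29, 7.50 and 7.60 in molars 1-4 and 7.36, 7.18, 7.09 and 7.73 in molars 5-8. Molar 2 was the highest and molar 8 came next, above the other 3 of molars 1-4, and without molar 8, 17 muscle genes were higher in molars 1-4 (4 without molar 1, none after quantile normalization). The troponin *Tnnt2* was also highest in molar 2 and then in molar 8, with 8.80, 10.03, 8.94 and 8.89 against 8.44, 8.30, 8.25 and 9.00. Lower incisors had list means of 8.01 to 8.17 and maxillary molars of 6.49 to 6.81. Molar 2, with the most muscle signal, was also the sample with the least enamel knot and dental epithelium signal, and the part of muscle in the differences was not tested. The counts higher in molars 5-8 without molar 2 were 5 of 16 enamel knot genes, 8 of 21 BMP genes and 3 of 20 dental epithelium genes, with molar 8, the next highest in muscle, kept in.

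Neuronal genes had a median of -0.11 over 14. The neurofilaments *Nefl*, with 8.87, 9.17, 9.23 and 9.30 against 8.63, 7.86, 8.72 and 8.21 (-0.79), and *Nefm* (-0.95) were higher in molars 1-4, and *Uchl1* was higher in molars 5-8 (0.41). Without molar 7, 4 neuronal genes were higher in molars 1-4. The Schwann cell genes *Sox10* (-0.31) and *Gfra3* (-0.42), 2 of 7, were higher in molars 1-4. The list means ranged over 7.35 to 7.56 in molars 1-4 and 7.20 to 7.46 in molars 5-8 for Schwann cells and glia, and over 6.91 to 7.10 and 6.74 to 6.93 for neurons.

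In the erythroid list the embryonic globins *Hbb-y*, with 12.32, 12.23, 11.93 and 11.91 against 11.44, 11.54, 11.74 and 10.80 (-0.72), and *Hba-x* (-0.52) were higher in molars 1-4. These were 2 of 9 genes. The list mean was highest in molar 7, at 8.44, and lowest in molar 8, at 7.18, with molars 1-4 at 7.68 to 8.24. Blood genes thus ranged widely within molars 5-8, and 4 of them were higher in molars 1-4 without molar 7.

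Osteoblast genes had a median of -0.15 over 11, and 1, *Dlx5* (0.74), which also patterns the lower jaw, was higher in molars 5-8. *Ibsp*, bone sialoprotein, had 11.44, 11.24, 11.04 and 12.13 against 10.42, 11.19, 10.20 and 9.86, with overlap at molars 3 and 6. The list mean was highest in molar 4 (10.43). No osteoblast gene was higher in molars 1-4, but 4 were without molar 6, 2 without molar 3 and 1 after either normalization, and 2 were higher in molars 5-8 without molar 7. Keratinizing epithelium had a mean of 7.27 in molar 8 and of 6.60 to 6.95 in the other 7, where *Krt13* was 10.02 in molar 8 against 7.29 to 8.48 elsewhere. *Krt6a* (0.79) was higher in molars 5-8 and *Sprr1b* (-0.29) in molars 1-4.

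Cartilage had 2 of 19 genes higher in molars 5-8, *Sox9* (0.61), also a gene of the germ itself, and *Col11a1*, and *Cnmd* higher in molars 1-4. The shares of 10.5% and 5.26% lay near the 8.00% and 3.38% of all genes. The count of 2 was 1 without molar 3, without molar 6 and after either normalization, and the list means were 7.14 to 7.25 and 7.17 to 7.29. Endothelium had 3 of 15 higher in molars 5-8 (*Robo4*, *Eng* and *Sox17*) and *Cldn5* higher in molars 1-4. The first count was 6 without molar 4, 5 without molar 7 and 1 without molar 1. Macrophages had *Fcer1g* (0.42) as 1 of 13 (7.69%, near the 8.00% of all genes). Without molar 4 or without molar 5, 3 were higher in molars 5-8, and 2 were without molar 7. None of 8 mast cell genes passed, although *Cpa3* ranged from 7.31 (molar 2) to 9.23 (molar 8). Among jaw patterning genes *Pitx1* (-0.42) and *Pax3* were higher in molars 1-4 and *Dlx5* in molars 5-8, of 18, and 4 were higher in molars 1-4 without molar 7.

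**Figure D3:**
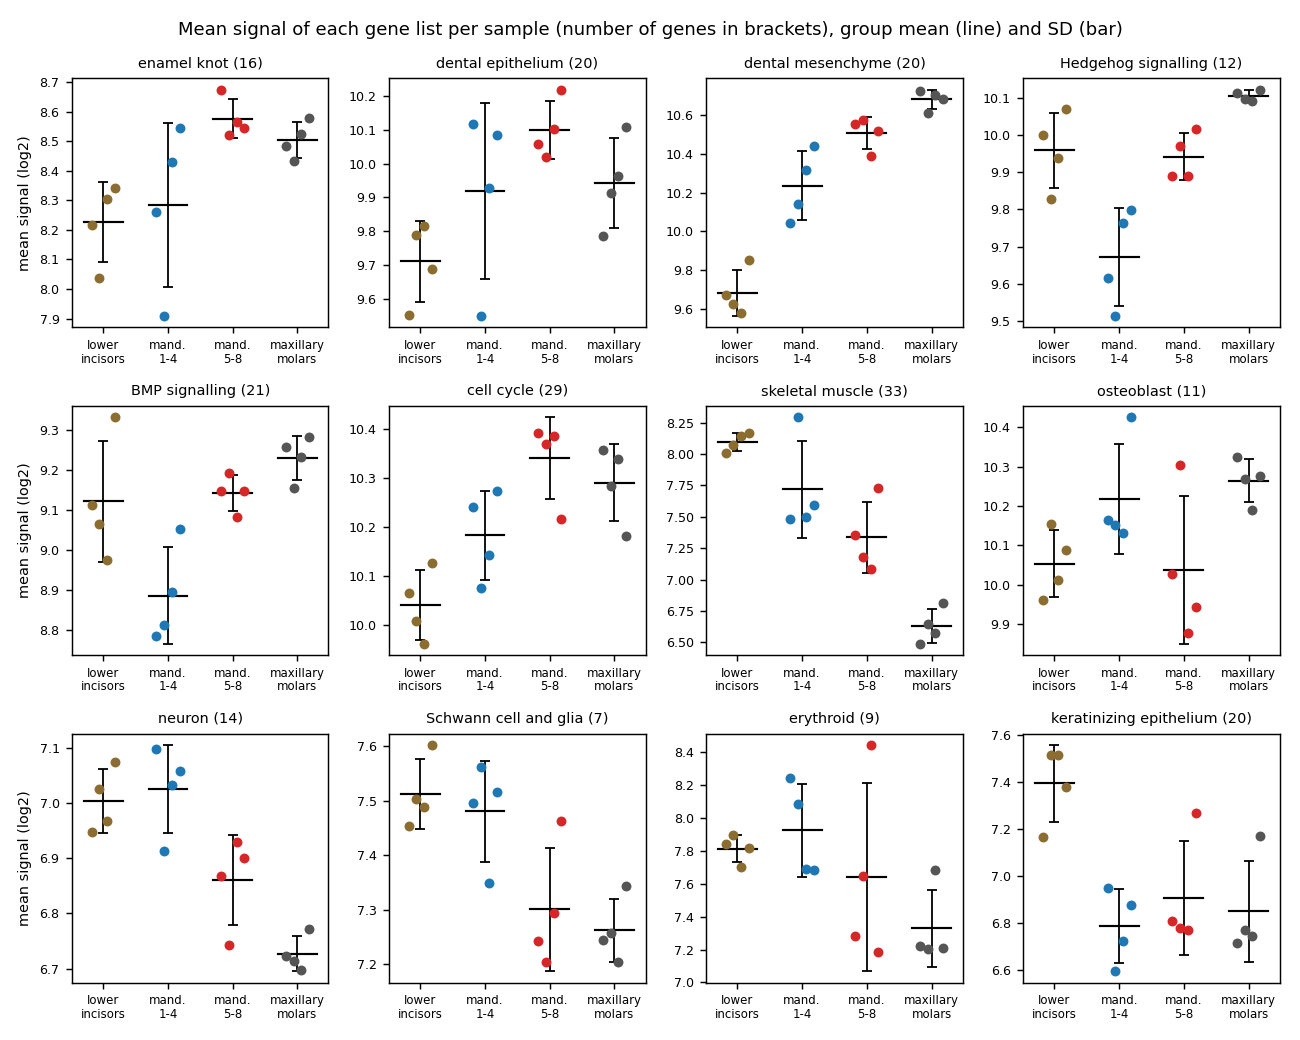
Mean log2 signal of 12 gene lists in the 16 samples (1 point a sample, from left to right by title number; the number of genes is in brackets), with the mean (line) and SD (bar) of each group of 4. The BMP and Hedgehog lists separate molars 1-4 from 5-8, whereas in muscle molar 2 (8.29) and molar 8 (7.73) lie above the other mandibular molars.

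The next 4 lists hold immediate early and heat shock, hypoxia and glycolysis, ribosomal protein and matrix genes. None of them measures handling of tissue or RNA directly, and the part of handling was not tested. Of 24 immediate early and heat shock genes 3 were higher in molars 1-4, *Klf2* (-0.39), *Klf4* (-0.39) and *Jund* (-0.31), and none in molars 5-8, with a median of 0.05. Of 15 hypoxia and glycolysis genes 4 were higher in molars 5-8, *Slc2a1*, *Ero1a*, *Bnip3* and *Car9*, at 0.27 to 0.33, with a median of 0.17. That median was 0.10 without molar 2, and the count was 2 without molar 3, without molar 7 and after either normalization. Ribosomal protein genes had 7 of 59 higher in molars 1-4 (11.9%) and 2 in molars 5-8 (3.39%), beside 3.38% and 8.00% of all genes. Of them 10 and 12 were higher in molars 1-4 after quantile normalization and cyclic loess, and 11 without molar 3. *Rps19* had -0.43 and *Rpl37a* -0.42, while *Rps21* had 0.67 and *Rplp2* 0.64. Another probe set of *Rps21* differed by 0.14. The matrix list had 2 of 23, *Thbs2* (0.36) and *Ogn* (0.33), higher in molars 5-8, and 4 without molar 2. Its share of 8.70% lay near the 8.00% of all genes.

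Histones had 2 of 37 in each direction (5.41%), beside 8.00% of all genes higher in molars 5-8 and 3.38% higher in molars 1-4. There were 6 higher in molars 1-4 without molar 7 and 4 higher in molars 5-8 without molar 1. Small nucleolar RNAs had 1 of 52 higher in molars 1-4 and 2 higher in molars 5-8, with list means from 7.85 (molar 4) to 8.89 (molar 2). Without molar 4, 10 of them were higher in molars 1-4, and 6 and 7 were higher in molars 5-8 without molar 2 and without molar 3. Olfactory and vomeronasal receptors, which are known from sensory epithelia of the nose, had 5 of 263 higher in molars 1-4 and 1 in molars 5-8, with list means of 5.44 to 5.57 and 5.41 to 5.49. Leaving out 1 sample gave 3 (molar 2) to 11 (molar 4) higher in molars 1-4. The Y-linked genes *Kdm5d*, *Eif2s3y* and *Uty* were measured in all 8 pools and did not separate the groups. *Xist*, the RNA of the inactive X, was 6.35 in molar 1 and 5.60 in molar 7, and 4.71 to 5.03 in the other 6.

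Whole samples also differed in spread. The median SD over kept probe sets was 0.135 in molars 1-4 and 0.0932 in molars 5-8, and pairs of samples had correlations across probe sets, which are no replicates, of 0.971 to 0.990 in the first and 0.989 to 0.994 in the second. Molars 1-4 were thus the looser and molars 5-8 the tighter group. Pairs between the groups had 0.9753 to 0.9865 (median 0.984), inside the range of pairs within molars 1-4 (median 0.986). Molars 5 to 8 had medians of 0.991 to 0.992 with maxillary molars and of 0.977 to 0.979 with lower incisors. Molars 1 to 4 had medians of 0.977 to 0.983 with maxillary molars and of 0.977 to 0.986 with lower incisors. With the others of molars 1-4, molars 1, 2 and 3 had medians of 0.989, 0.988 and 0.988. With molars 5-8 they had lower medians of 0.984, 0.977 and 0.986. Molar 4 had a median of 0.985 with molars 5-8 and of 0.983 with the others of molars 1-4. Its highest correlation with any sample was 0.989, with a lower incisor, while its median with lower incisors was 0.977. On the first principal component of genes (43.9% of the variance) molars 1 to 4 lay at -13.9, -24.2, -11.5 and -3.5 and molars 5 to 8 at 13.2, 12.7, 11.6 and 15.5. Over all probe sets (40.5%) molar 4 lay at 19.7, among molars 5-8 at 8.4 to 21.5, and molars 1, 2 and 3 at -23.8, -47.3 and -19.2. Molar 4 thus stood with molars 1-4 by genes and with molars 5-8 by all probe sets on that axis, and the second component of probe sets (24.5%) set it apart from the other 7, at -43.0.

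The place of each sample was also read with the sample left out of the choice of probe sets, on a scale from 0 (mean of its own group) to 1 (mean of the other). Molars 1, 2 and 3 had medians of 0.00, 0.28 and 0.28 over 124 to 153 probe sets, and molars 5 to 8 had 0.17, 0.06, 0.05 and 0.10. Molar 4 had 0.79 over 301 probe sets, 71.4% of which put it nearer to molars 5-8. Over 56 genes chosen in the same way it had 0.47, against -0.04 to 0.15 for the other 7 samples. On this scale 7 of 8 samples lay nearer to their own group, and molar 4 lay nearer to the other group over probe sets and about midway over genes. The split itself was chosen with all 8 samples seen, so a place near the own group is no test of the split.

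**Figure D4:**
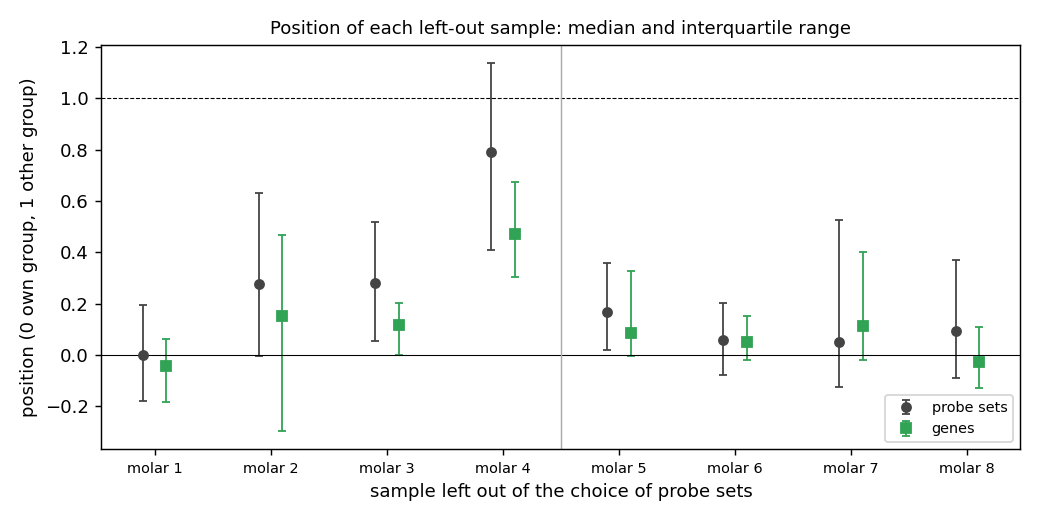
Position of each mandibular molar sample (y axis; 0 is the mean of its own group and 1 that of the other) over probe sets (circles) and genes (squares) that separate the remaining 7 samples, as median with interquartile range. Molar 4 lies at 0.79 over probe sets and 0.47 over genes, and the other 7 at 0.28 or lower.

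The samples that the split does not hold gave a further reading. The methods of the study set aside 1 of the 4 lower incisor arrays for high background without naming it, and all 4 were used here. For each called probe set the mean of lower incisors and that of maxillary molars were set against both groups of mandibular molars. Lower incisors were nearer to molars 1-4 at 115 of 123 and maxillary molars nearer to molars 5-8 at 120. Both held at 114 (92.7%), and at 110 to 114 with each lower incisor left out in turn. The same was true of 56.6% of all kept probe sets, many of which hardly differ, and of 83.7% of the 5671 whose groups do not overlap. Among the 35 called genes both held at 28 (80.0%, and 27 to 30 with each lower incisor left out), against 85.4% of the 1955 genes over 1.2-fold and 56.2% of all kept genes. Among the 74 called probe sets of the block without symbols both held at 72 (97.3%). The 55 of these that were higher in molars 5-8 had means of 6.68 ± 0.29 in lower incisors, 6.53 ± 0.41 in molars 1-4, 7.86 ± 0.14 in molars 5-8 and 7.92 ± 0.20 in maxillary molars (SD, n = 4 each). The 30 called genes higher in molars 5-8 had 7.72 ± 0.33, 7.62 ± 0.22, 8.80 ± 0.09 and 8.83 ± 0.10 in the same order. The 19 probe sets of the block higher in molars 1-4 had 6.67 ± 0.23, 6.92 ± 0.31, 5.74 ± 0.11 and 6.05 ± 0.16.

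Individual genes did not all follow this order. *Mir205* did, at 5.74 ± 0.54 in lower incisors and 7.79 ± 0.26 in maxillary molars, and so did *Vps33b* at 9.11 ± 0.33 and 10.33 ± 0.16. *Gli1* was 9.72 ± 0.12 in lower incisors, nearer to molars 5-8 (9.89 ± 0.11) than to molars 1-4 (9.20 ± 0.02). *Msx2* was 8.35 ± 0.41 in lower incisors, above both groups of mandibular molars, and *Hhip* was 8.82 ± 0.35, above molars 1-4 at 7.83 ± 0.24. *Nefl*, at 7.33 ± 0.56 in lower incisors and 6.53 ± 0.25 in maxillary molars, had group means below all 8 mandibular molars. Molars 1-4 were thus the lowest of the 4 groups for *Gli1*, *Msx2*, *Hhip*, *Shh*, *Sostdc1* and *Bmp4*. Incisors and maxillary molars each are 1 set of 4, with no array run named, so between them tooth type and array handling cannot be told apart. Molars 1-4 and 5-8 carry the same tooth label, and the part of array handling in the difference between them was not tested.

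**Figure D5:**
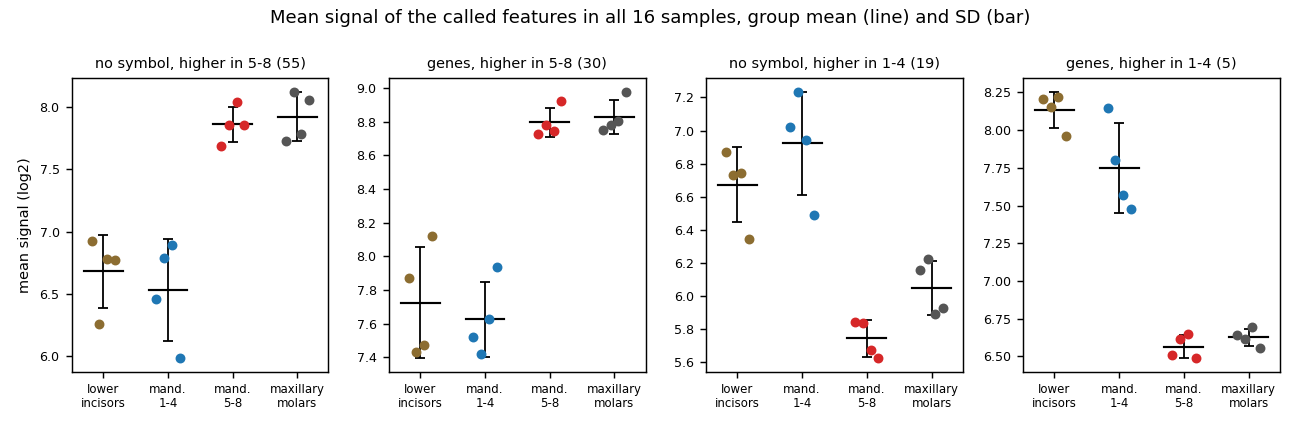
Mean log2 signal over called features in the 16 samples (1 point a sample), with the mean (line) and SD (bar) of each group of 4, for probe sets of the block without symbols and for genes, by direction (numbers in brackets). Lower incisors lie near molars 1-4 and maxillary molars near molars 5-8 in all 4 panels.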

How the data were processed

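Pools of 4 tooth germs from E14.5 mouse embryos were hybridized to Affymetrix Mouse Gene 1.0 ST arrays, 16 in all. The signals are on the log2 scale. Per the labels, the authors ran RMA (background correction, quantile normalization and probe summary) in Expression Console 1.1, and the deposited log2 values were used unchanged. Groups are 8 mandibular molar samples by title number. The split, the members and the gene lists were chosen with earlier results of these data known. Probe sets above 5 in at least 1 of the 8 samples were kept, and those without overlap between the groups and over 2-fold apart were called, or over 1.2-fold for genes of lists. Named genes were up to 10 of the largest differences in each direction, the 2 nearest the limit on either side, up to 4 members of each list, cap stage landmarks and sex-linked genes; others were named after their values were seen. The table of probe sets pairs 21789 with 1 symbol, 1621 with several and the rest with none; symbols and sequences are of GRCm38.p6. Of the listed genes *Cdkn1a*, *Runx2* and the adult globins, among others, were not analysed here. Python 3.11.15, R 4.3.3 and limma 3.58.1 were used, the last only for alternatives. The call rule and limma were tested on simulated data. An array gives no read depth, so the number of arrays limits the precision, and SDs are between samples, which may be technical.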

Additional observations from a re-analysis of the deposited data

Results flagged for a closer look

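In 122 groups of 4 values examined (list means, named genes and the mean of the block without symbols), 8 held a sample far from the other 3, and chance flags about 1 in 20 groups. Molar 2 was high in skeletal muscle, at a mean of 8.29 against 7.49 to 7.60 in the others of molars 1-4. Molar 1 was high for *Xist*, at 6.35 against 4.71 to 4.89. Molar 4 was high in osteoblast genes, at 10.43 against 10.13 to 10.16. Molar 8 was low in cell cycle genes, at 10.22 against 10.37 to 10.39, and high in keratinizing epithelium, at 7.27 against 6.77 to 6.81. Molar 7 was low in Wnt genes, at 9.04 against 9.15 to 9.16, high in histones, at 9.06 against 8.95 to 8.97, and high in the mean of the block of probe sets without symbols, at 6.54 against 6.42 to 6.43. Their causes were not tested.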

How the results depend on the processing

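No paired analysis was possible because the groups share no replicate numbers. Of probe sets higher in molars 1-4 there were 26, and 15 with a floor at 5, 42 by limma (adjusted p under 0.1, fold over 2), 98 by limma with array weights, 132 at 1.5-fold, 5 with 1 probe set per gene and 24 to 212 with each sample left out, highest without molar 4. Of those higher in molars 5-8 there were 97, and 431 at 1.5-fold, 30 with 1 probe set per gene and 89 to 121 with each sample left out. Without molars 2 and 4 together, chosen after seeing the data, the counts were 149 and 89. Filters at 6 or none, quantile normalization and cyclic loess kept both counts within 1.5 times. Genes over 1.2-fold were 565 to 797 (higher in 1-4) and 1094 to 1910 (higher in 5-8) over the settings tried. Held-out positions moved by less than the spread within a group, molar 4 staying at 0.72 to 0.81, and the share of probe sets with both other teeth nearer as described was 88.6% to 93.0%, also with each lower incisor left out, an alternative chosen after seeing the data. No named gene called at 1.2-fold changed sign under the normalizations, the floor or a left-out sample. Since the split came from these arrays, none of this is independent support.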
